A study of Arabidopsis thaliana with 38 samples.

Results

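Wild-type (Col-0) *Arabidopsis thaliana* endosperm was compared after 24 h and after 1 h of imbibition, for the 379 genes that met a rule on their level. The rule took the genes for which values at 1 h were given, 640 in all, and kept those with a mean of at least 1 TPM in Col-0 at either time. TPM is a read count divided by gene length and scaled to a fixed total within each library. The 24 h group was 3 Col-0 libraries of endosperm from water-imbibed seeds (24HAI), and the 1 h group was 3 Col-0 libraries of endosperm that the study calls mature. Endosperm of *vel3-1*, a T-DNA mutant of the gene *VEL3*, was read at the same times with 3 libraries each and is used here only beside Col-0. The study was made to learn how VEL3, a relative of the vernalization protein VIN3, controls seed dormancy, and its whole series holds 38 RNA-seq and ChIP-seq samples. Tissue was enriched for endosperm by squeezing imbibed seeds and spinning the fragments in sucrose, so a sample is a pool of many seeds and can hold seed coat and embryo fragments. Of the 379 genes, 188 reached 1 TPM at both times, 179 at 24 h only and 12 at 1 h only, and the other 261 listed genes were under 1 TPM at both. Just inside the limit were AT3G02900 with 1.00 TPM and AT2G42900 with 1.01 TPM at 24 h, and just outside it were AT1G33700 with 0.9996 TPM and *VAL3* with 0.993 TPM at 24 h.

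In a mature *Arabidopsis* seed the endosperm is a single layer of living cells between the dead seed coat and the embryo. It restrains germination through abscisic acid and through the mechanical resistance of its walls, and during imbibition it resumes transcription, mobilizes reserves and loosens its walls before the root emerges. Dry seeds also carry stored mRNA from maturation, so an early library reads both stored and new transcripts.

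The 640 genes are not a sample of the genome. Each of them had a higher mean TPM in *vel3-1* than in Col-0 at 1 h, by 0.85 to 1.14 on the log2 scale, and the table runs in the order of that ratio. The Col-0 libraries of 1 h therefore took part in how the list was made, and every statement below covers these genes only. Listing on a lower Col-0 level at 1 h can by itself raise the differences of 24 h minus 1 h used below. How much it did so was not tested. At 24 h, values covered 26925 genes and summed to between 980609 and 982037 TPM in the Col-0 libraries, of which the 379 genes took 10799, 12491 and 12017 TPM. At 1 h the 379 genes took 6050, 6727 and 6203 TPM. The rest of the 1 h libraries was not analysed here, so imbibition time and any difference in how the libraries of the times were made or scaled cannot be told apart. Likewise, in a pooled tissue, fewer cells of a type and less RNA per cell cannot be told apart. The markers of endosperm in imbibed seeds were present at 24 h, led by *EPR1*, an extensin-like protein of the endosperm, with 19406, 16077 and 20082 TPM. Of 9 embryo markers 7 were under 1 TPM at 24 h, none was at 0 in all 3 libraries, and their sum lay between 35.3 and 43.3 TPM, nearly all of it *SCR* and *ATML1*. The 4 seed coat markers summed to between 8.83 and 12.8 TPM, led by *BAN*. None of the endosperm and embryo markers was among the genes listed at 1 h, so the tissue label of that time was not checked here. The 3 libraries of a time are biological replicates by the study's methods, whose exact relation is not given, and with 3 against 3 an exact permutation test cannot go below p = 0.1.

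Most of the genes were listed at a higher level at 24 h. Of the 379 genes, 248 were higher at 24 h and 16 were lower (65.4% and 4.22% of those tested) by limma on log2(TPM + 1). A call asked for a difference of 1 or more on that scale, which is 2-fold in TPM + 1, and an adjusted p below 0.05. For genes near or under 1 TPM this is a larger ratio of TPM. The median level was 5.63 TPM at 24 h and 1.12 TPM at 1 h, and the median difference was 1.34. Because the listing used the Col-0 level at 1 h, the counts and the median describe the list and do not test a rise. The differences ran from -3.46 to 6.42, and 12 genes were higher by 4 or more. In 297 genes (78.4%) all 3 libraries of 24 h lay above all 3 of 1 h, in 35 (9.23%) they lay below, and in 47 the times overlapped. Replicates were closer to each other than the times were, with a median SD of log2(TPM + 1) of 0.23 over the libraries of 24 h and 0.24 over those of 1 h.

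The counts were also taken by level at 1 h, as a description only, since that level is the value subtracted in the difference and also decides which genes entered. Among the 70 genes with at least 10 TPM at 1 h, 28 were higher at 24 h and 13 were lower, with a median difference of 0.11. Among the 309 genes under 10 TPM at 1 h, 220 were higher and 3 were lower, with a median of 1.44. A gene under 1 TPM at 1 h entered only by reaching 1 TPM at 24 h, so it had to be higher there, and 143 of the 248 genes that were higher had entered in that way. Of the 188 genes at 1 TPM or more at both times, 105 were higher and 12 were lower.

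**Figure D1:**
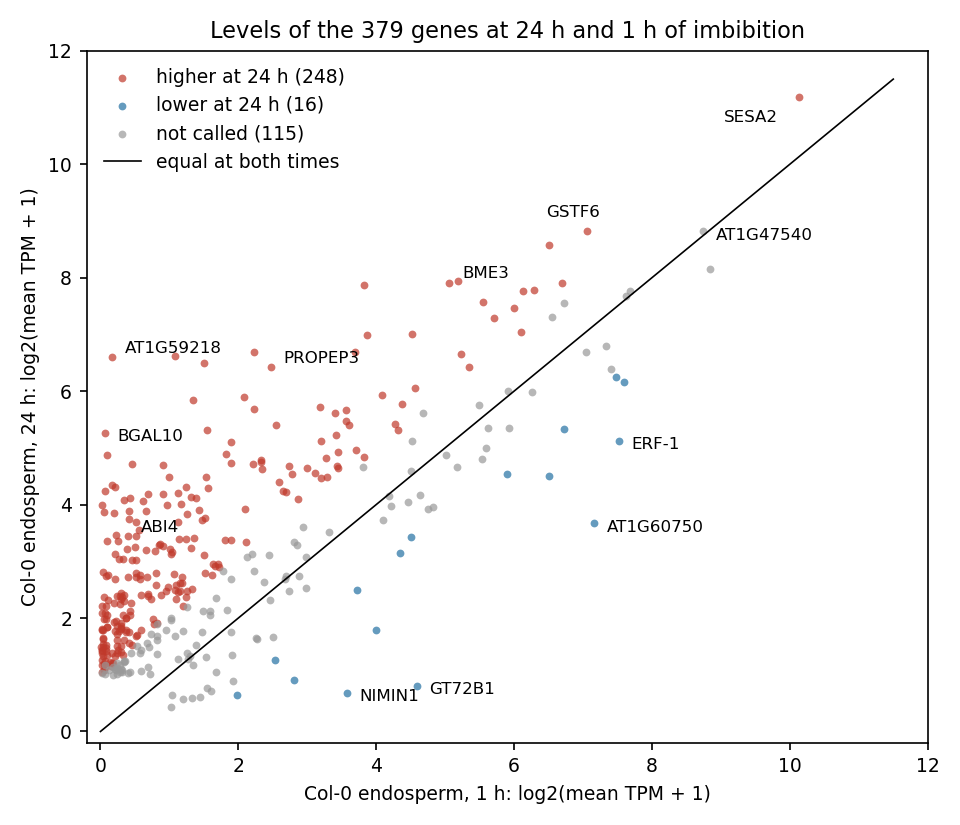
Mean TPM of each of the 379 genes in Col-0 endosperm at 24 h (vertical axis) and at 1 h (horizontal axis), both as log2(TPM + 1), with genes higher at 24 h in red (248), lower in blue (16) and not called in grey (115). Most genes with a low level at 1 h lie above the line of equal levels, and 13 of the 16 genes that were lower had at least 10 TPM at 1 h.

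The balance of higher and lower genes also depended on the scale. After median-ratio scaling, which sets the typical gene of the list equal between the times, 82 genes were higher and 78 were lower (21.6% and 20.6%), and the median difference was 0.19. The scaling follows a median ratio of 24 h over 1 h of 4.36 over the 329 genes above 0 in all 6 libraries. After quantile normalization the counts were 65 higher and 72 lower. The 82 genes higher on the relative scale were all higher on the deposited scale, and the 16 genes lower on the deposited scale were all lower on the relative one. The other 62 genes that were lower after scaling had not been called before it. In what follows, a relative difference is the one after median-ratio scaling.

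**Figure D2:**
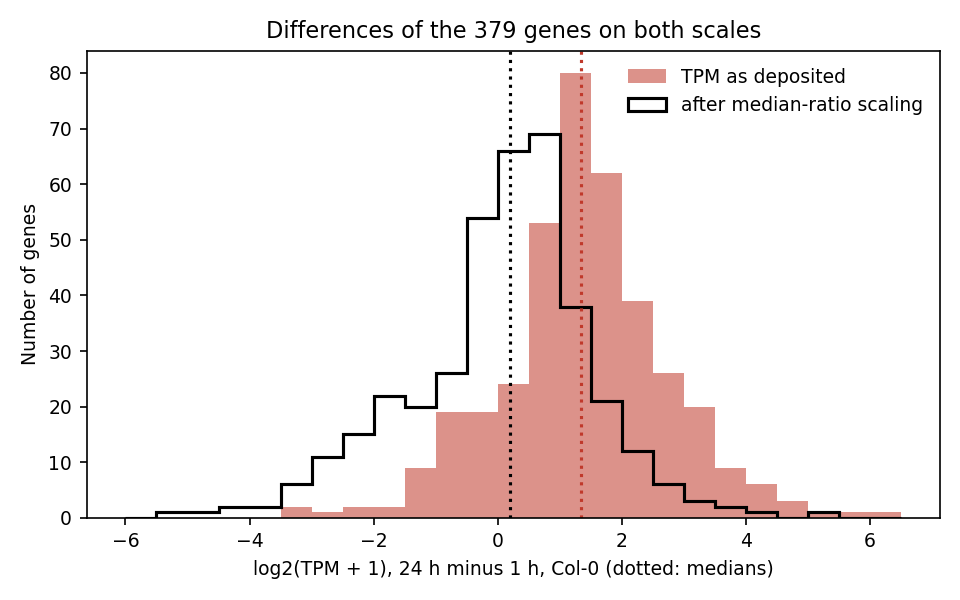
Number of genes (vertical axis) by difference in log2(TPM + 1), 24 h minus 1 h in Col-0 (horizontal axis), for TPM as deposited (filled) and after median-ratio scaling (black outline), with dotted lines at the medians of 1.34 and 0.19. As deposited most genes lie above 0, with 325 positive and 54 negative differences, and after scaling the lower tail is the heavier.

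The largest difference was that of AT1G59218, annotated as a disease resistance protein with a coiled-coil, nucleotide-binding and leucine-rich repeat domain (chromosome 1, 21827945 to 21833018 in TAIR10.1). It had 86.0, 89.7 and 112 TPM at 24 h, against 0.0837, 0.174 and 0.123 TPM at 1 h, a difference of 6.42 (SE 0.23, adjusted p = 1.93e-07 by limma). AT1G59218 was under 1 TPM at 1 h and entered through its 24 h level, so the rule set its direction and the p-value is no test of it. The nearby gene AT1G58848, of the same class, had 87.3, 90.8 and 114 TPM at 24 h, against 0.732, 1.96 and 0.633 TPM at 1 h, a difference of 5.59. The aligned sequences of the pair share 5072 identical bases with 1 mismatch, so reads of one could be counted for the other and their separate values are uncertain. Proteins of this class are intracellular immune receptors that detect pathogen effectors.

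Behind the pair came enzymes and a transporter. *BGAL10* encodes a beta-galactosidase that trims xyloglucan, a wall polysaccharide, and had 20.2, 60.2 and 31.9 TPM at 24 h, against 0.142, 0 and 0 TPM at 1 h (difference 5.06, SE 0.37). Like *GLL22* below, it was under 1 TPM at 1 h, so the rule set its direction. *STR18*, a sulfurtransferase, had 41.9, 160.4 and 63.9 TPM at 24 h, against 3.11, 0.520 and 1.91 TPM at 1 h. *GLL22*, a lipase of the GDSL family, had 18.1, 40.2 and 26.5 TPM at 24 h, against 0.107, 0.103 and 0 TPM at 1 h. All 3 genes were lowest at 24 h in the first library and highest in the second, and that library was the highest of the 3 for 253 of the 379 genes. The endosperm weakening genes *EXPA2* and *MAN7*, an expansin and a mannanase, were also highest there, with 423 and 58.7 TPM, against 67.6 to 153 TPM and 15.7 to 28.4 TPM in the other libraries of 24 h. The endosperm markers *EPR1*, *MAN5* and *MAN6* went the other way and were lowest there, with 16077, 3.37 and 5.30 TPM. The part of this library in the results was measured by leaving it out, which gave 234 genes higher and 18 lower.

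AT1G11670, an efflux carrier of the MATE family, was even across the libraries of 24 h, with 54.2, 56.6 and 58.2 TPM, against 1.24, 2.90 and 0.453 TPM at 1 h (difference 4.62, SE 0.35). AT5G20950, a glycosyl hydrolase, averaged 102 ± 36.1 TPM at 24 h and 3.67 ± 1.9 TPM at 1 h (SD, n = 3 each). *AHP2* passes the cytokinin signal from receptor to nucleus as a phosphotransfer protein, and averaged 25.3 ± 5.68 TPM at 24 h and 0.368 ± 0.143 TPM at 1 h. ATMG01190, the mitochondrially encoded subunit 1 of ATP synthase, had 20.2, 20.5 and 17.2 TPM at 24 h, against 0.121, 0.116 and 0.119 TPM at 1 h. All of these genes were also higher on the relative scale, with differences between 2.64 and 5.23. *AHP2* and ATMG01190 were under 1 TPM at 1 h and entered through their 24 h level, so the rule set their direction.

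*PROPEP3* completed the 10 largest differences. It encodes the precursor of Pep3, a peptide released from damaged cells that neighbouring cells read as a danger signal (chromosome 5, 25939562 to 25940080 in TAIR10.1). It had 83.2, 84.6 and 87.2 TPM at 24 h, against 3.80, 8.86 and 0.932 TPM at 1 h, a difference of 4.25 (SE 0.50, adjusted p = 6.34e-05 by limma) and a relative difference of 2.45. The 24 h libraries were almost equal, while those of 1 h were spread over more than their own mean. The W-box TTGACC is the site of WRKY factors, and whether any of them acts on *PROPEP3* was not tested. The 250 bases before the annotated start of *PROPEP3* are shown because they hold 3 copies of the W-box and 1 copy of the variant TTGACT. They read 5′ to 3′ on the strand of the gene, chr5:25939312-25939561 in RefSeq TAIR10.1, plus strand, with capitals marking W-boxes, the variant and 1 abscisic acid response core ACGTG on either strand.
PROPEP3: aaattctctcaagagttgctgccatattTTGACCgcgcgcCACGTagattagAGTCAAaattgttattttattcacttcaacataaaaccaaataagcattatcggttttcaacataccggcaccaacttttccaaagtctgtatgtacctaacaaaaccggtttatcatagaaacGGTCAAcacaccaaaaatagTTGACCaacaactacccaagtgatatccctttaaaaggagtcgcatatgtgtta

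**Figure D3:**
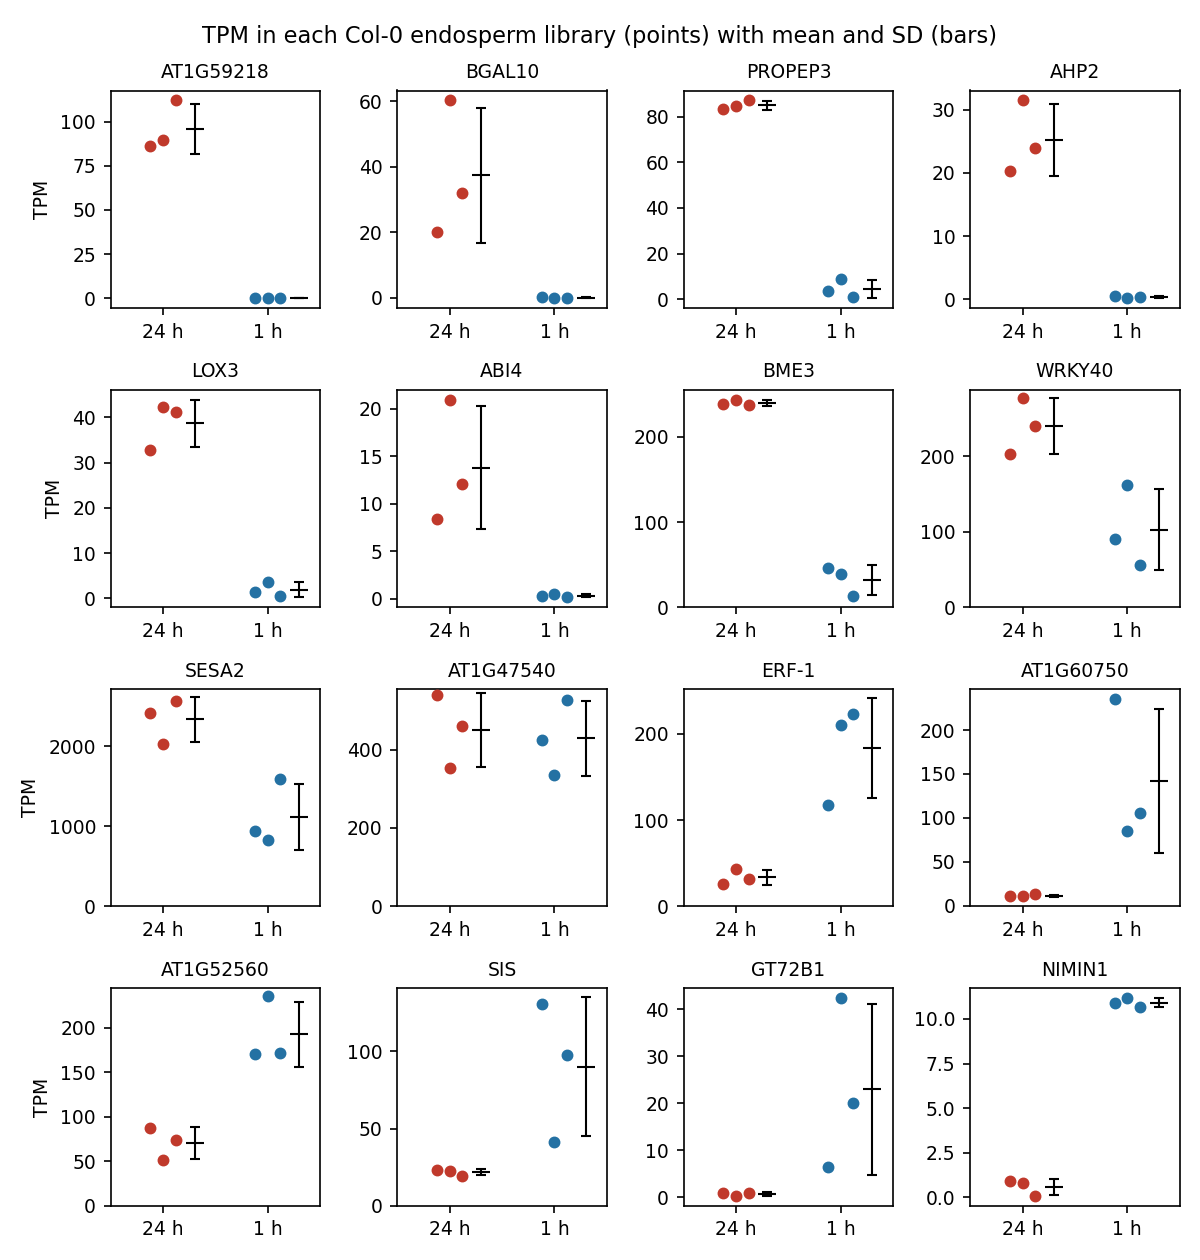
TPM (vertical axes, each with its own range that includes 0) of 16 genes in each Col-0 endosperm library at 24 h (red, left) and 1 h (blue, right), with the mean and SD of 3 libraries as a bar beside the points. The first 9 genes were higher at 24 h, AT1G47540 overlapped between the times, and the last 6 were lower at 24 h with no overlap.

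The 16 genes that were lower at 24 h were led by *GT72B1* and AT1G60750. *GT72B1*, a glucosyltransferase that acts on foreign phenols and lignin precursors, had 0.977, 0.359 and 0.919 TPM at 24 h, against 6.48, 42.4 and 20.1 TPM at 1 h (difference -3.46, SE 0.55, adjusted p = 0.000312 by limma). AT1G60750, an NAD(P)-linked oxidoreductase, had 11.1, 11.0 and 13.1 TPM at 24 h, against 235, 84.8 and 106 TPM at 1 h. For both the libraries of 1 h were over 2-fold apart and still lay wholly above those of 24 h. *NIMIN1*, which binds the salicylic acid regulator NPR1 and restrains its target genes, had 0.916, 0.814 and 0.0914 TPM at 24 h, against 10.9, 11.2 and 10.7 TPM at 1 h (difference -2.93). *GT72B1*, *NIMIN1* and, below, *GRXS13* and *BT2* averaged under 1 TPM at 24 h, so the rule set their direction.

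*ERF-1*, an activator of the ethylene response family that binds the GCC box of defence genes, had 25.9, 43.3 and 32.3 TPM at 24 h, against 118, 209.5 and 223 TPM at 1 h. Its difference was -2.38 (SE 0.33, adjusted p = 0.000137 by limma), or 5.43-fold lower by the means, and its relative difference was -4.40 (chromosome 4, 9759203 to 9760391). The 250 bases before its start are chr4:9758953-9759202 in RefSeq TAIR10.1 on the plus strand. They are shown because they hold 2 matches to the heat shock element pattern GAANNTTC and 1 G-box CACGTG. Whether any factor acts through these sites was not tested. Capitals mark the 2 elements and the G-box, which holds the abscisic acid core on both of its strands.
ERF-1: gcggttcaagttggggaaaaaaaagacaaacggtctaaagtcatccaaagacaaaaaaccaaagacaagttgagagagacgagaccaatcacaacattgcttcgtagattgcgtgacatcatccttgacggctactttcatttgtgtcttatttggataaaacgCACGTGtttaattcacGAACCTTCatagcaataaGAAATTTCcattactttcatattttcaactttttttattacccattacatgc

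Of the remaining genes AT1G52560, a small heat shock protein of the HSP20 type, had 87.0, 51.3 and 73.4 TPM at 24 h, against 170.3, 235 and 172 TPM at 1 h (difference -1.45, SE 0.28). AT2G19310, of the same type, had 42.4, 36.6 and 39.3 TPM at 24 h, against 61.1, 137 and 116 TPM at 1 h. *SIS*, annotated for a role in salt tolerance, averaged 21.7 ± 1.84 TPM at 24 h and 90.0 ± 45.2 TPM at 1 h (SD, n = 3 each). Small heat shock proteins are chaperones that seeds store during maturation.

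AT5G62770, of unknown function, was among the most regular, with 2.59, 2.89 and 1.88 TPM at 24 h, against 14.4, 15.5 and 15 TPM at 1 h. *GRXS13*, a glutaredoxin, had 0.673, 1.21 and 0.750 TPM at 24 h, against 2.78, 8.51 and 6.63 TPM at 1 h. AT1G26800, a RING-type protein of the kind that attaches ubiquitin, averaged 22.3 ± 3.85 TPM at 24 h and 58.6 ± 7.65 TPM at 1 h. *BT2*, a BTB and TAZ domain protein, averaged 0.555 ± 0.0301 TPM at 24 h and 2.94 ± 0.282 TPM at 1 h. AT1G70420, of the same unknown family as AT5G62770, lay just outside the group with a difference of -1.0 that just missed the 2-fold minimum and passed it in 4 of the 6 fits that left out a library, with 82.4 ± 14.1 TPM at 24 h and 168 ± 46.7 TPM at 1 h.

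Motifs were counted on both strands in the 300 bases from 250 before to 50 after the annotated start of 27443 protein-coding genes. The heat shock element GAANNTTC was present in 5 of the 16 genes that were lower (31.2%), in 35 of 241 that were higher (14.5%) and in 11.6% of all promoters. On the relative scale it was in 13 of 78 genes that were higher (16.7%) and 14 of 78 that were lower (17.9%). The W-box TTGACC was present in 16.6% of the promoters of genes that were higher, in 1 of 16 that were lower and in 14.2% of all. On the relative scale it was in 19 of the 78 genes that were higher with a promoter window (24.4%) and in 10 of the 78 that were lower (12.8%). The telo-box AAACCCTA, common before genes of ribosomal proteins, was in 6 of 241 genes that were higher (2.49%), in 2 of 16 that were lower and in 6.22% of all. The abscisic acid core ACGTG was in 28.2% of the genes that were higher, 3 of 16 that were lower and 26.7% of all. The other motifs counted were the G-box CACGTG (8.30% of higher genes, 7.68% of all), the RY repeat CATGCA (9.13% and 9.72%), the site II core GGCCCA (12.9% and 15.5%), the drought response core GCCGAC (4.15% and 3.28%) and TTGACT (26.1% and 21.8%). A match describes the letters only, and these shares were not tested.

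Several of the most abundant genes did not show the shift of the list. *SESA2*, a storage albumin laid down during maturation, was the most abundant gene of the list at both, with 2423, 2026 and 2573 TPM at 24 h, against 939.8, 827 and 1589 TPM at 1 h. It was higher at 24 h by 1.12 (SE 0.29, adjusted p = 0.0054 by limma), with no overlap, but its relative difference was -0.95 and not called, and the deposited call was lost without the second library of 1 h (0.93). AT1G47540, a knottin-type small protein, had 539, 353 and 459 TPM at 24 h, against 423, 335 and 527 TPM at 1 h (difference 0.07, SE 0.28). The libraries of the times overlapped for this gene.

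The dehydrogenase-like AT4G13180 averaged 217 ± 16.5 TPM at 24 h and 205 ± 27.7 TPM at 1 h (SD, n = 3 each), and the oxidoreductase AT3G44190 averaged 203 ± 10.7 TPM at 24 h and 195 ± 53.7 TPM at 1 h. None of AT1G47540, AT4G13180 and AT3G44190 was called on the deposited scale, and all were lower on the relative scale, by -1.99, -1.97 and -1.97. AT2G36220, of unknown function, had 273, 284 and 291 TPM at 24 h, against 533, 435 and 407 TPM at 1 h, and its difference of -0.69 did not reach the 2-fold minimum. The calcium-binding protein AT4G27280 averaged 381 ± 29.5 TPM at 24 h and 89.9 ± 14.6 TPM at 1 h, and it was higher by 2.08, with a relative difference of 0.03 that was not called. *GSTF6*, a glutathione transferase of stress and camalexin metabolism, had 382, 472 and 500.5 TPM at 24 h, against 57.5, 251 and 90.4 TPM at 1 h. Its difference of 2.02 passed the test and its relative difference was -0.03.

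Genes were then grouped by words of their annotation, each group set beside the 248 higher and 16 lower of 379 and the median of 1.34. A member under 1 TPM at 1 h had to be higher at 24 h to enter, so each list's count and median follow in part from the rule. The rule likewise set the direction of each gene named below with a 1 h mean under 1 TPM in Col-0. Members at 1 TPM or more at both times were 21 of 30 transcription factors, 12 of 25 kinases and phosphatases, 8 of 22 genes of proteolysis, 8 of 11 lipid enzymes, 4 of 10 immune genes, 3 of 11 transport genes, 2 of 8 ribosomal genes and 2 of 5 hormone response genes. Of 30 transcription factors, 19 were higher and 2 were lower, with a median of 1.25. *ABI4*, a factor that carries the abscisic acid signal in seeds and the only regulator of dormancy and germination from a list of 22 that was measured here, had 8.39, 21.0 and 12.1 TPM at 24 h, against 0.276, 0.528 and 0.181 TPM at 1 h. It differed by 3.40 (SE 0.32, adjusted p = 2.13e-05 by limma) and by 2.16 on the relative scale (chromosome 2, 16796247 to 16797585). *ABI4* was under 1 TPM at 1 h, so the rule set its direction and the p-value is no test of it. *BME3*, a GATA factor that promotes germination, had 239, 244 and 237 TPM at 24 h, against 46.0, 38.8 and 12.5 TPM at 1 h (difference 3.04, SE 0.44, chromosome 3, 20296130 to 20298827). Its relative difference was 1.01 and not called. Both genes were higher as deposited, *ABI4* by the rule, and only *ABI4* of the pair was called on the relative scale.

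The heat stress factors *AT-HSFA7B* and *HSFA7A* were higher while the small heat shock proteins were lower. *AT-HSFA7B* averaged under 1 TPM at 1 h, so the rule set its direction. *AT-HSFA7B* had 8.39, 23.3 and 13.2 TPM at 24 h, against 1.42, 1.15 and 0.280 TPM at 1 h. *HSFA7A* had 3.99, 24.0 and 10.0 TPM at 24 h, against 1.86, 0.865 and 2.82 TPM at 1 h, with a difference of 2.02 that was 0.40 and not called on the relative scale. The list of heat shock proteins and chaperones held 4 genes, of which *HSFA7A* and AT1G72070, a DnaJ-type chaperone, were higher and the pair of HSP20 genes was lower, with a median of 0.36. AT1G70000, a MYB-like factor, averaged 8.28 ± 3.77 TPM at 24 h and 0.310 ± 0.324 TPM at 1 h (SD, n = 3 each).

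WRKY factors, which act in defence and senescence, were looked at after their values were seen. *WRKY40* was the most abundant, with 203, 277 and 239.9 TPM at 24 h, against 90.6, 161 and 55.5 TPM at 1 h (difference 1.34, relative difference -0.71 and not called). *WRKY7* had 6.57, 9.96 and 8.07 TPM at 24 h, against 0.374, 1.04 and 0.338 TPM at 1 h, and was higher on both scales (2.55 and 1.24). The calls of *WRKY40* and *WRKY17* were lost without the third library of 1 h (0.97 and 0.98). *WRKY17* and *WRKY23* were higher by 1.17 and 1.25, and their relative differences were -0.82 and -0.69. So all 4 measured members were higher as deposited, and after scaling only *WRKY7* was, among these 4 genes. *WRKY7* averaged under 1 TPM at 1 h, so the rule set its direction.

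The ethylene response factors went different ways. Beside *ERF-1*, which was lower, *ERF13* averaged 4.43 ± 2.94 TPM at 24 h and 0.232 ± 0.271 TPM at 1 h and was higher by 2.03 (SD, n = 3 each). *ERF13* averaged under 1 TPM at 1 h, so the rule set its direction. *ERF6* was higher by 1.05 (adjusted p = 0.023 by limma), with 113, 153 and 125 TPM at 24 h, against 41.0, 110.2 and 52.0 TPM at 1 h. Its call was lost without the second or the third library of 24 h or the first or the third of 1 h, with differences between 0.76 and 1.08. *ERF2* averaged 28.2 ± 7.34 TPM at 24 h and 31.4 ± 9.44 TPM at 1 h, and *ERF71* averaged 12.3 ± 3.44 TPM at 24 h and 16.1 ± 6.21 TPM at 1 h, with the times overlapping for both.

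All 5 hormone response genes measured were higher, with a median of 2.05. *WES1* and *DFL1* are GH3 enzymes that conjugate auxin to amino acids. *WES1* had 7.46, 18.1 and 11.7 TPM at 24 h, against 0.549, 0.325 and 0.128 TPM at 1 h, and *DFL1* averaged 7.10 ± 2.06 TPM at 24 h and 0.433 ± 0.236 TPM at 1 h. *CKX5*, which degrades cytokinin, had 37.1, 35.3 and 37.3 TPM at 24 h, against 5.22, 18.8 and 5.06 TPM at 1 h (difference 2.05, relative difference 0.12). *RAS1*, named for its response to abscisic acid and salt, had 48.3, 59.8 and 53.3 TPM at 24 h, against 41.6, 9.55 and 8.16 TPM at 1 h, and its difference of 1.77 became -0.22 on the relative scale.

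Enzymes of hormone synthesis stood outside that word list and were chosen after their values were seen, apart from *CPD*. *LOX3* and *AOC4* act in jasmonate synthesis. *LOX3* had 32.7, 42.2 and 41.1 TPM at 24 h, against 1.50, 3.73 and 0.509 TPM at 1 h (difference 3.92, SE 0.39), and *AOC4* had 8.16, 19.1 and 13.0 TPM at 24 h, against 0.275, 0.0878 and 0.0900 TPM at 1 h (difference 3.58, SE 0.30). *CPD* makes brassinosteroids and *BAS1* inactivates them. *CPD* averaged 4.17 ± 1.86 TPM at 24 h and 0.241 ± 0.0762 TPM at 1 h, and *BAS1* averaged 3.15 ± 0.383 TPM at 24 h and 0.0637 ± 0.0882 TPM at 1 h (SD, n = 3 each). Both were higher at 24 h, by 2.0 and 1.96 on log2(TPM + 1). At these low 1 h levels the added 1 makes the differences smaller than the log2 ratios of the TPM. *AOC4*, *CPD* and *BAS1* were under 1 TPM at 1 h, so the rule set their direction.

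Of 25 genes annotated as kinases, phosphatases or their inhibitors, 19 were higher and none was lower, with a median of 1.45, and on the relative scale 4 were higher and 3 were lower. *TMK1*, a receptor-like kinase of auxin responses, had 6.01, 14.4 and 9.88 TPM at 24 h, against 0.257, 0.158 and 0.108 TPM at 1 h (difference 3.17, relative difference 2.06). AT1G61360, a lectin-type receptor kinase, had 15.8, 16.7 and 16.5 TPM at 24 h, against 1.36, 2.80 and 0.687 TPM at 1 h. Of 10 immune receptors and defence peptides 8 were higher and none was lower, with a median of 1.6, and the near-identical pair described above makes up 2 of the 8. *CRK2*, a cysteine-rich receptor kinase named after its values were seen, averaged 59.8 ± 9.66 TPM at 24 h and 16 ± 5.89 TPM at 1 h, with a relative difference of -0.10. AT4G36000, a thaumatin-like protein, averaged 8.0 ± 1.07 TPM at 24 h and 1.06 ± 0.422 TPM at 1 h. *PDF1.2b*, a defensin and a usual readout of jasmonate and ethylene, was near the floor, with 0.937, 0 and 0.0935 TPM at 24 h, against 1.32, 0.484 and 1.29 TPM at 1 h, and the times overlapped.

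Of 11 membrane transport genes 9 were higher and none was lower (median 1.81). *CNGC3* and *CNGC13*, cyclic nucleotide-gated cation channels, had a similar course. *CNGC3* had 11.2, 10.8 and 13.8 TPM at 24 h, against 0.329, 0.859 and 0.107 TPM at 1 h, and *CNGC13* had 10.1, 10.5 and 11.7 TPM at 24 h, against 0.154, 1.03 and 0.259 TPM at 1 h. *INT2*, an inositol transporter, averaged 5.60 ± 0.946 TPM at 24 h and 0.597 ± 0.0502 TPM at 1 h (SD, n = 3 each). *CNGC3*, *CNGC13* and *INT2* averaged under 1 TPM at 1 h, so the rule set their direction.

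All 6 cell wall proteins measured were higher, with a median of 2.13, and none of them reached 1 TPM at 1 h, so each had entered through its level at 24 h. AT4G25260, of the family that inhibits invertases and pectin methylesterases, had 9.83, 23.4 and 15.6 TPM at 24 h, against 0.404, 0.116 and 0.515 TPM at 1 h. The arabinogalactan proteins *AGP26* and *AGP7* averaged 7.24 ± 3.89 TPM and 8.07 ± 2.97 TPM at 24 h, against 0.254 ± 0.141 TPM and 0.724 ± 0.307 TPM at 1 h. *EXLA2*, an expansin-like protein, had 2.08, 7.31 and 2.78 TPM at 24 h, against 0.383, 0.209 and 0.107 TPM at 1 h. The relative differences of these 4 genes were between 0.92 and 2.32, and *AGP7* and *EXLA2* were not called on that scale.

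Redox enzymes had the lowest median of the lists with at least 5 members, 0.09, with 6 higher, 2 lower and 5 not called of 13. *PRXR1*, a secreted peroxidase, had 54.4, 47.7 and 48.5 TPM at 24 h, against 2.70, 4.06 and 4.23 TPM at 1 h, and was higher by 3.47 (SE 0.25, adjusted p = 7.49e-06 by limma). At the other end were AT1G60750 and *GRXS13*, described above. On the relative scale 1 of the 13 was higher and 7 were lower, against 82 and 78 of all 379. Of these 13 genes 9 were at 1 TPM or more at both times.

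**Figure D4:**
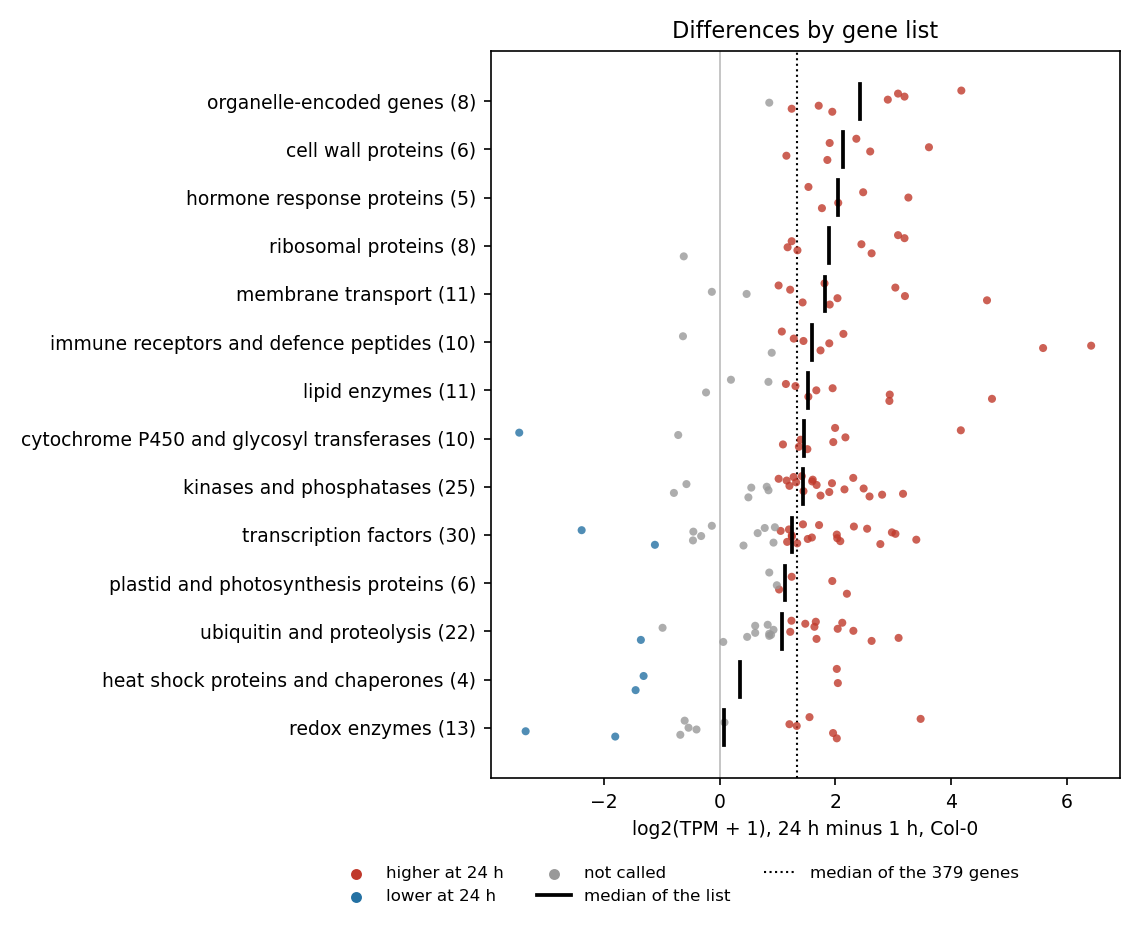
Difference in log2(TPM + 1), 24 h minus 1 h in Col-0 (horizontal axis), of each member of the lists with at least 4 genes, ordered by the list's median (black bar), with the number of members in brackets. Points are red where higher at 24 h, blue where lower and grey where not called, and the dotted line is the median of the 379 genes, 1.34.

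Proteins stored in the dry seed were few in the list. Both dehydrins measured were higher. *ERD10* averaged 4.24 ± 2.27 TPM at 24 h and 0.606 ± 0.203 TPM at 1 h, and *ERD14* averaged 84.6 ± 5.68 TPM at 24 h and 39.7 ± 8.83 TPM at 1 h (SD, n = 3 each). Neither was called on the relative scale, where *ERD10* differed by 0.40 and *ERD14* by -0.94, and the deposited call of *ERD14* was lost without the third library of 1 h (0.95). Beside *SESA2* the storage list held AT1G73550, a lipid transfer protein of the same fold, with 25.7, 25.7 and 25.6 TPM at 24 h, against 4.47, 2.42 and 1.24 TPM at 1 h.

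Of 22 genes of ubiquitin and proteolysis, 11 were higher and 1 was lower, with a median of 1.08. AT1G48530, annotated with a proteasome inhibitor domain, had 17.8, 20.1 and 18.2 TPM at 24 h, against 0.762, 2.06 and 1.29 TPM at 1 h (difference 3.09). *RHA2B*, a ubiquitin ligase of abscisic acid signalling, averaged 8.72 ± 4.87 TPM at 24 h and 0.796 ± 0.325 TPM at 1 h (SD, n = 3 each). *RD19*, a papain-type protease first known from drought, had 29.5, 78.0 and 35.5 TPM at 24 h, against 6.19, 11.4 and 11.1 TPM at 1 h, and its relative difference was 0.16.

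Of 8 ribosomal protein genes 7 were higher (median 1.9), and 3 of the 8 are encoded in organelles. Of 8 genes encoded in plastids or mitochondria 7 were higher, with a median of 2.43, but only 1 of the 8 reached 1 TPM at both times, so the rule itself set most of these directions. ATMG00980, a mitochondrial ribosomal protein, had 11.2, 10.1 and 8.28 TPM at 24 h, against 0.163, 0.780 and 0 TPM at 1 h. ATCG00820, ribosomal protein S19 of the plastid, had 11.0, 23.0 and 7.14 TPM at 24 h, against 0.221, 0 and 1.52 TPM at 1 h, and ATCG00740, a plastid RNA polymerase subunit, averaged 9.83 ± 2.92 TPM at 24 h and 0.424 ± 0.212 TPM at 1 h. The labels give poly(A) RNA for these libraries, which captures organelle transcripts unevenly, and the part of that in these values was not tested. AT4G17560, a nuclear gene of a ribosomal protein L19, averaged 14 ± 3.79 TPM at 24 h and 1.70 ± 0.286 TPM at 1 h. Of 6 plastid and photosynthesis genes 4 were higher (median 1.14), among them AT1G66480, annotated with plastid movement, by 2.20 and *PSBR*, a photosystem II subunit, by 1.03. *PSBR* averaged 27.5 ± 2.40 TPM at 24 h and 13.1 ± 2.54 TPM at 1 h (SD, n = 3 each), and its relative difference was -0.93. Its call was lost without the second library of 24 h or the second or the third of 1 h, with differences between 0.93 and 0.99.

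Among 11 lipid enzymes 8 were higher and none was lower (median 1.53), led by *GLL22*. AT1G28600, another lipase of the GDSL family, had 47.0, 38.6 and 38.3 TPM at 24 h, against 5.25, 6.87 and 2.41 TPM at 1 h. Of 10 cytochrome P450 enzymes and glycosyl transferases 8 were higher and *GT72B1* was lower (median 1.46), and 1 of the 10 reached 1 TPM at both times. *CYP706A1* had 16.5, 17.9 and 19.3 TPM at 24 h, against 0, 0.0493 and 0.101 TPM at 1 h (difference 4.17, SE 0.21). *LUT1*, which makes lutein, averaged 9.55 ± 1.09 TPM at 24 h and 1.37 ± 0.507 TPM at 1 h (SD, n = 3 each). The cell cycle was represented by 2 genes, both higher, the kinase inhibitor *ICK1* with 5.60 ± 2.21 TPM at 24 h and 0.430 ± 0.115 TPM at 1 h, and the cyclin *CYCA1;2* with 2.43 ± 1.06 TPM at 24 h and 0.161 ± 0.187 TPM at 1 h. Both had entered by their level at 24 h, and neither was called on the relative scale (0.94 and 0.73). The word lists for translation factors, pentatricopeptide repeats and chromatin and the list of oil mobilization enzymes found no member among the 379.

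The same times were read in *vel3-1* for 365 of the 379 genes. This is not an independent reading, because the genes were listed by a near-constant ratio of *vel3-1* to Col-0 at 1 h, which ties the 1 h levels of the genotypes together, so the shared calls below are partly set by the listing and are given as a description. In *vel3-1*, 186 of 405 tested genes were higher at 24 h and 33 were lower (45.9% and 8.15%), with a median difference of 0.90. The higher 1 h level by which the genes were listed is subtracted there, so a smaller difference than in Col-0 follows in part from the listing. Of the 248 genes higher in Col-0, 175 were higher in *vel3-1*, which is 70.6% of the Col-0 genes and 94.1% of the *vel3-1* genes, 67 were not called, 6 were not tested and none was lower. Of the 16 genes lower in Col-0, 15 were lower in *vel3-1*, which is 93.8% of the first set and 45.5% of the second. The remaining one was *GRXS13*, whose difference was -1.80 in Col-0 and -0.99 in *vel3-1*. The genes were listed for a higher 1 h level in *vel3-1* (median log2 ratio to Col-0 of 0.97), and at 24 h that ratio was 0.17 and above 0 for 242 of the 379.

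Some genes stood apart from this pattern. *WES1* differed by 5.03 in *vel3-1*, where it had 66.4, 53.1 and 42.4 TPM at 24 h, against 0.824, 0.743 and 0.439 TPM at 1 h, and by 3.26 in Col-0. *DFL1*, the other GH3 gene, differed by 3.47 in *vel3-1* and 2.48 in Col-0. *PRXR1* went the other way, with 1.11 in *vel3-1*, where it had 15.7, 16.6 and 17.2 TPM at 24 h, against 7.66, 6.98 and 6.79 TPM at 1 h, and 3.47 in Col-0. AT1G52560 differed by -3.53 in *vel3-1*, where it had 34.2, 27.5 and 30.6 TPM at 24 h, against 419, 287 and 405 TPM at 1 h, and by -1.45 in Col-0. These genes were picked for their distance between the genotypes, and the differences between genotypes were not tested.

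**Figure D5:**
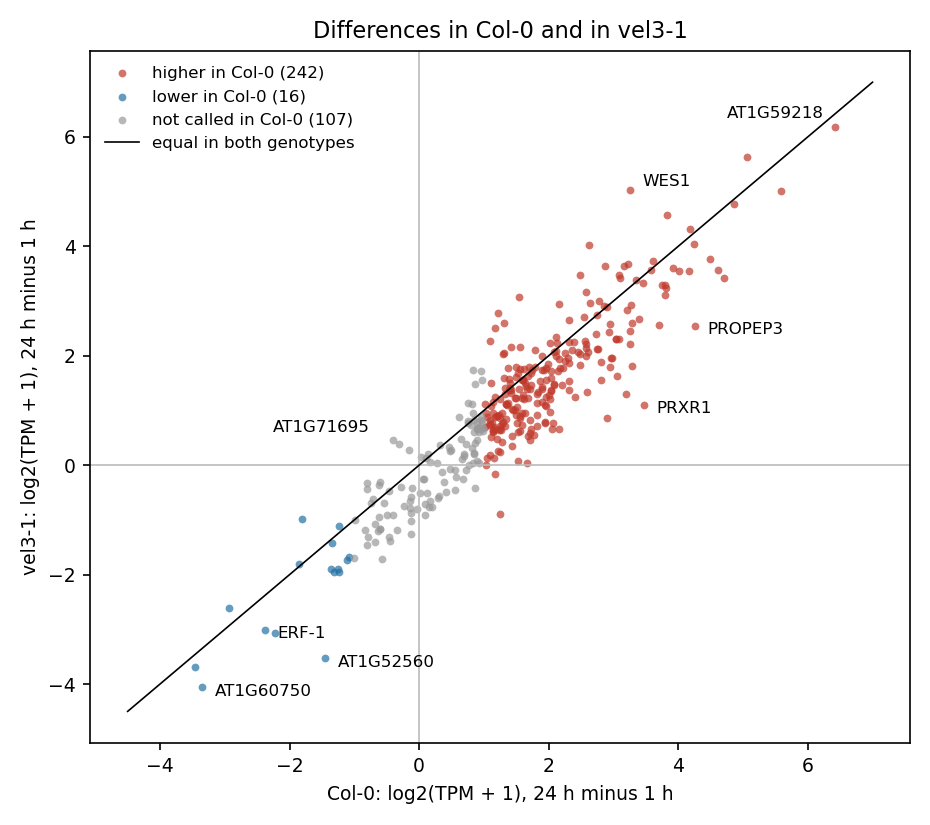
Difference in log2(TPM + 1), 24 h minus 1 h, in *vel3-1* (vertical axis) and in Col-0 (horizontal axis) for the 365 genes tested in both, coloured by the call in Col-0 (242 higher, 16 lower, 107 not called). Most points lie below the line of equal differences, which follows in part from listing the genes for a higher 1 h level in *vel3-1*. AT1G71695 is negative in Col-0 and positive in *vel3-1*.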

How the data were processed

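The data are TPM of *Arabidopsis* endosperm RNA-seq, 3 libraries per genotype and time. The authors trimmed reads with cutadapt 1.9.1, mapped them to TAIR10 with STAR 2.5 and counted them per gene with featureCounts, per the labels and the study's methods, and deposited TPM. How counts became TPM is not given in the sources used here, so the depth behind a value is unknown and precision comes from the replicate spread. The 24 h values cover 26925 genes and the 1 h values 640.

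log2(TPM + 1) was compared by limma 3.58.1 (R 4.3.3) with a trend of variance on mean, for genes at a mean of 1 TPM at either time, with Benjamini-Hochberg adjustment over all genes tested. A gene was called with a difference of 1 or more and an adjusted p below 0.05. No count model was used, since counts were not analysed here. The procedure was tested on simulated data whose base levels were raised to a minimum, so that test does not cover genes at a low level. Files were read with Python 3.11.15, pandas 2.3.3 and numpy 2.4.6, permutations run with scipy 1.17.1 and plots drawn with matplotlib 3.10.9. Names and sequences are RefSeq TAIR10.1, where 631 of the 640 genes were found.

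The members and lists were chosen with earlier results of these data known. Lists were made by words in the first clause of each gene's annotation, and their word matching was tightened, and organelle genes added, after the annotation was seen. Named genes are the 10 largest differences in each direction among genes whose times do not overlap, the 5 most abundant at each time, up to 4 called members per list and genes called in opposite directions in Col-0 and *vel3-1*, of which there were none. Others are said to be chosen after their values were seen, as were the WRKY genes, *CRK2*, *PDF1.2b*, the ERF genes beside *ERF-1*, *LOX3*, *AOC4*, *BAS1* and AT1G70420. Replicate numbers of 24 h and 1 h were not used to pair the samples in the main comparison.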

Additional observations from a re-analysis of the deposited data

Results flagged for a closer look

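AT1G71695, a peroxidase, was singled out because all 3 libraries of 24 h lay below those of 1 h in Col-0 and above them in *vel3-1*. In Col-0 it had 14.9, 16.3 and 15.3 TPM at 24 h, against 24.7, 16.7 and 21.7 TPM at 1 h, a difference of -0.40 (adjusted p = 0.155 by limma). In *vel3-1* it had 70.8, 60.6 and 52.7 TPM at 24 h, against 42.1, 42.8 and 47.5 TPM at 1 h, a difference of 0.46. Neither difference was called, and the difference between the genotypes was not tested. It was the only such gene of the 379, and 27 genes had differences of opposite sign without regard to overlap.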

How the results depend on the processing

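Depth is unknown from TPM, so low genes are limited only by the replicate spread, and the 1 h values cover listed genes only. The counts in Col-0 depended on filter and scale. Genes higher at 24 h numbered 149 at a minimum of 5 TPM at either time and 105 at 1 TPM at both times (fewer genes tested), 82 with median-ratio scaling and 65 with quantile normalization. Genes lower numbered 25 with a pseudocount of 0.1, 78 and 72 after those scalings and 31 without a fold minimum. In *vel3-1* the higher genes numbered 120, 84, 93 and 77 under the same filters and scalings, and the lower ones 96 and 86 after scaling and 56 without a fold minimum. The median difference in Col-0 was 2.22 with a pseudocount of 0.1, 0.63 over all 640 genes, 1.83 at 5 TPM, 1.54 at a mean of 1 TPM over 6 libraries, and 0.19 and 0.022 after the scalings. Leaving out 1 library at a time gave 234 to 263 higher and 15 to 20 lower genes in Col-0, a median of 1.28 to 1.40, and 178 to 205 higher and 28 to 40 lower genes in *vel3-1*. Without organelle-encoded genes and the near-identical pair, an alternative chosen after seeing the data, 239 were higher and 16 lower.

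After median-ratio scaling these named genes changed sign: *SESA2* (-0.95), *GSTF6* (-0.032), AT1G47540 (-1.99), AT4G13180 (-1.97), AT3G44190 (-1.97), *ERD14* (-0.94), *RAS1* (-0.22), *PSBR* (-0.93), *WRKY40* (-0.71), *WRKY17* (-0.82), *WRKY23* (-0.69), *ERF6* (-0.99) and *CRK2* (-0.10). After quantile normalization AT1G47540 (-0.15), AT4G13180 (-0.41), AT3G44190 (-0.55), *PSBR* (-0.34) and *WRKY23* (-0.23) did. Leaving out 1 library, AT1G47540 lay between -0.091 and 0.24, AT3G44190 between -0.058 and 0.30 and *ERF2* between -0.39 and 0.042. The scalings set the typical gene of the list equal by construction, and the cause of the shift itself was not tested. Over all alternatives the 82 named genes gave 1168 values on the same side of the threshold, 57 that lost the call, 17 that gained it and 23 of changed sign.

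Replicate numbers were not used to pair the samples in the main comparison. Deviations of same-numbered libraries correlated at 0.12, -0.02 and -0.19 in Col-0 and at -0.06, 0.04 and 0.04 in *vel3-1*. These correlations cannot exclude a pairing, since the exact relation of the samples is not given. With the replicate block, 248 genes were higher and 16 lower in Col-0 (median 1.34), and 187 and 33 in *vel3-1*.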
